A study of Mus musculus with 6 samples.

Results

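The genes described here are the chemokines, small secreted proteins that steer the movement of cells, and the receptors that read them. All were measured in fetal gonads of wild-type and Sox9 mutant mice. They were chosen by symbol alone, as every gene named Ccl, Ccr, Cxcl, Cxcr, Cx3cl, Cx3cr, Xcl or Xcr with a number and at most 1 closing letter, with Cxcr7 excepted, and needed a probe set annotated to that gene and no other. This gave 51 of the 19937 genes measured, 34 ligands and 17 receptors, each read from the probe set with the highest mean over the 6 arrays. The Ccl21 genes, read by a probe set annotated to several genes, were left out on that account.

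RNA came from gonads of embryos at E13.5, freed of the adjoining mesonephros, and was measured on 1 Affymetrix array per pool. The mutant group had the genotype Sox9flox/flox; Sf1:creTr/+, in which a Cre recombinase under Sf1 (Nr5a1) regulatory sequence acts in somatic cells of the gonad on floxed alleles of Sox9, and held 3 arrays, numbered 3, 4 and 6, each from 12 pooled gonads. The wild-type (WT) group held 3 arrays, numbered 1, 2 and 5, each from 6 pooled gonads. Both were on a mixed background of C57BL6/J and 129. The sex of the embryos is not in the labels, and no group carried the Cre or the floxed alleles alone, so genotype cannot be told apart from either, or from pool size. Nothing says that pools came from separate litters, so p-values here speak of the spread among these 6 arrays, part of which may be technical. The values are deposited log2 signals after RMA, and the number of arrays, not a read depth, limits the precision.

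Chemokine receptors are G protein-coupled receptors, and ligands are grouped by the spacing of their leading cysteines into CC, CXC, XC and CX3C classes. Many inflammatory ligands pair with several receptors on leukocytes, whereas CXCL12 and its receptor CXCR4 serve in embryos as a homing pair: CXCL12 made by stromal cells guides CXCR4-bearing primordial germ cells to the genital ridge and supports vessels and blood progenitors. By E13.5 germ cell migration is over, and the gonad holds germ cells, supporting cells, interstitial cells, vessels and a few leukocytes.

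Across this family 1 of 51 genes passed the test (limma, adjusted p under 0.05), against 6.94% of all genes measured. That gene, Cxcl12, fell 3.82-fold in mutant gonads, while its receptor gene Cxcr4 and all the others did not pass. The promoter windows of this ligand and its receptor, from 250 bases before to 50 bases after the annotated RefSeq start in GRCm38.p6, are printed here because the pair carries the comparison; the array files name no genome build, and the windows are not array probes. Capitals mark the letters of a GC box (GGGCGG) or a TATA box (TATAAA) on either strand.
Cxcl12, chr6:117168285-117168584, + strand: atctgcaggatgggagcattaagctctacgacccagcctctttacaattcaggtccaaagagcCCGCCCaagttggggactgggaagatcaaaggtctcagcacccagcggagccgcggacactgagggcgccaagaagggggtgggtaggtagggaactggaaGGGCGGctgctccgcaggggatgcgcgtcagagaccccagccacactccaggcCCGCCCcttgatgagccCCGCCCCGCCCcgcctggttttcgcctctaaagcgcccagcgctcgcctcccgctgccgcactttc
Cxcr4, chr1:128592250-128592549, - strand: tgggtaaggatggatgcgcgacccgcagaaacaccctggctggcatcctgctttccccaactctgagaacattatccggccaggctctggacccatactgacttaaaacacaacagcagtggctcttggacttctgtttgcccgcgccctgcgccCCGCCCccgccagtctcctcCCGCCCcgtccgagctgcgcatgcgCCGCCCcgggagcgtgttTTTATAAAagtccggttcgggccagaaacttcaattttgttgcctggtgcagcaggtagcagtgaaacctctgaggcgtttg

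The Cxcl12 window held 5 GC box matches, of which the pair nearest the start overlap by 1 letter, and no TATA box. The Cxcr4 window held 3 GC box matches, and the palindromic run around its TATA box, which starts at base -32, matched on both strands. Neither window contained ACAAAG or ACAATG, letters that SOX proteins can bind, or AGGTCA, letters that NR5A1 can bind, on either strand. Of all 32851 promoter windows of this length, 35.7% held a GC box, 13.6% a TATA box, 18.7% ACAAAG, 12.6% ACAATG and 16.3% AGGTCA. Promoter windows were matched for 37 of the 51 genes. Of these 37 genes 7 had a GC box, 11 a TATA box, 8 ACAAAG, 3 ACAATG and 11 AGGTCA. The guanine and cytosine content was 64.7% in the Cxcl12 window and 59.3% in that of Cxcr4, with 20 CpG dinucleotides in each, against medians of 52.7% and 7 over all windows and 50.3% and 4 over the 39 windows of the 37 genes. These matches describe the letters of the windows only.

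Cxcl12 measured 7.72, 8.62 and 7.69 log2 on mutant arrays 3, 4 and 6, against 9.96, 9.95 and 9.93 log2 on WT arrays 1, 2 and 5. The groups did not overlap, mutant array 4 stood above the other mutant arrays, and the WT arrays lay close together. Means were 8.01 ± 0.53 log2 in the mutant and 9.94 ± 0.02 log2 in WT (SD, n = 3 each). Cxcl12 fell by 1.93 ± 0.23 log2 (SE; limma adjusted p = 0.00171), with a 95% interval from -2.44 to -1.42 log2, that is from 5.44-fold to 2.68-fold lower. Among the differences of 19937 genes it ranked 39 from the lowest. Every mutant value lay above 6.67 log2, a background mark below which 95% of 1192 probe sets for odorant and pheromone receptors had their mean level. The fall passed in each of the 17 other fits, with differences from -2.25 to -1.73 log2 and adjusted p from 9.78e-05 to 0.0148. It measured -1.79 log2 within array numbers 1 to 4 and -2.23 log2 within numbers 5 and 6, a split taken because the second principal component (23.3% of the variance) sets arrays 5 and 6 apart from the rest of their groups. No label gives these arrays a batch of their own.

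Cxcr4 measured 8.83, 9.29 and 9.71 log2 on mutant arrays 3, 4 and 6, against 9.50, 9.69 and 9.62 log2 on WT arrays 1, 2 and 5. The groups overlapped: mutant array 6 was above every WT array, and mutant arrays 3 and 4 were below them all. The means were 9.28 ± 0.44 log2 in the mutant and 9.60 ± 0.09 log2 in WT (SD, n = 3 each). The difference of -0.33 ± 0.20 log2 did not pass (limma adjusted p = 0.430), and its 95% interval ran from -0.78 to 0.12 log2. In the other fits it ran from -0.55 log2 without mutant array 6 to -0.11 log2 without mutant array 3 (adjusted p from 0.0861 to 0.832). Within array numbers 1 to 4 it was -0.54 log2, and within numbers 5 and 6 it was 0.09 log2, so the direction differed between those sets. That difference was not tested, since numbers 5 and 6 hold 1 array per group.

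**Figure D1:**
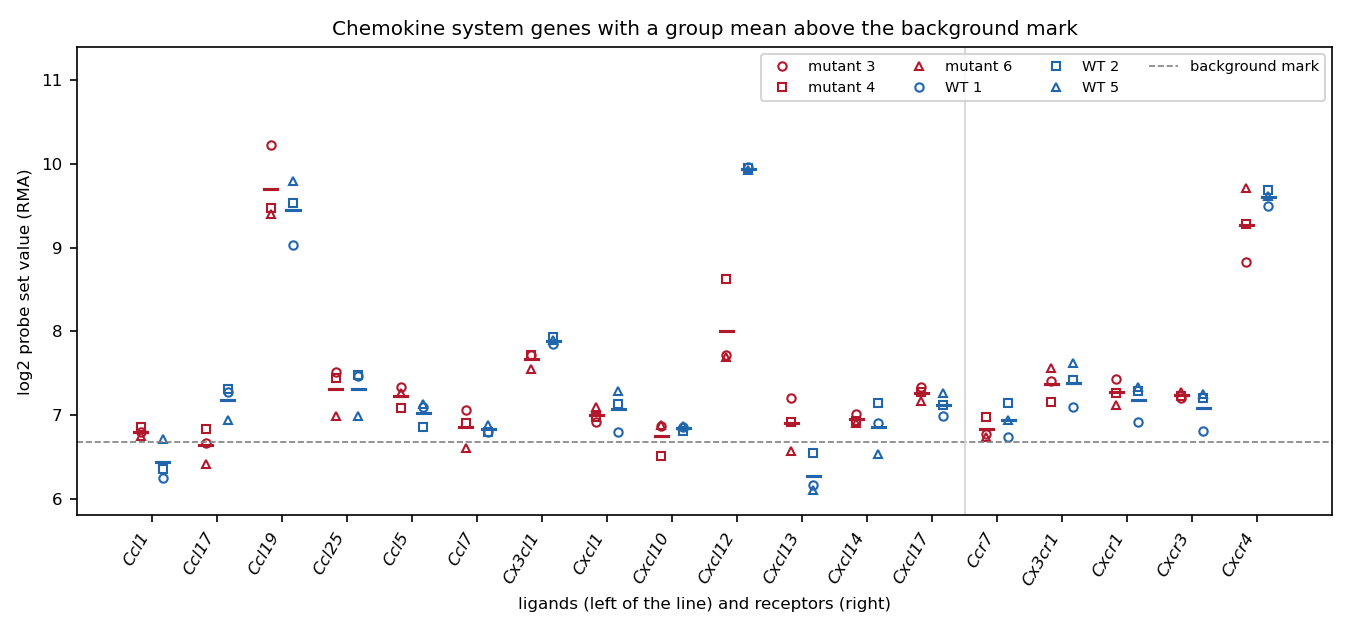
Log2 probe set values on each array (vertical axis) of the 18 chemokine system genes with a group mean above the background mark of 6.67 log2 (dashed), ligands on the left and receptors on the right, mutant arrays in red left of WT arrays in blue, short bars at group means. Heights of different genes are not comparable. Cxcl12 stands out by a gap between groups, with mutant values up to 8.62 and WT values from 9.93 log2.

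Genes of several gonadal cell types, set here beside the pair, moved in both directions on the same arrays. In bulk RNA, fewer cells of a type and less RNA per cell cannot be told apart. Of 6 interstitial genes 5 fell and 0 rose, against 4.30% of all genes falling, with Ptch1, the Hedgehog receptor, at -1.56, Gli1, a Hedgehog target, at -1.24, Tcf21, a mesenchymal transcription factor, at -1.22 and Pdgfra, a receptor of interstitial progenitors, at -0.81 log2. Maf, a factor of interstitial and immune cells and the gene of this list that did not pass, differed by -0.11 log2. The call of Nr2f2, a nuclear receptor of interstitial cells at -0.66 log2, was lost when any 1 array other than mutant 4 was left out (adjusted p up to 0.108), which left 4 calls in the list. The mean level of that list ran from 9.22 to 9.70 log2 on mutant arrays and from 10.31 to 10.39 log2 on WT arrays. All 6 Sertoli genes fell, with mean levels from 6.61 to 8.47 log2 on mutant arrays and from 10.36 to 10.47 log2 on WT arrays. Cxcl12 differed from the WT mean by -2.23, -1.32 and -2.25 log2 on mutant arrays 3, 4 and 6, and the list medians were -1.19, -0.80 and -1.002 log2 for interstitial and -3.76, -1.88 and -3.65 log2 for Sertoli genes on the same arrays. On mutant array 4 all 3 of these values were nearest to WT. The 4 measured Leydig genes fell too, and their median on those arrays was -4.66, -2.05 and -4.73 log2; Cyp17a1, a steroid-producing enzyme, did not pass when mutant array 3 or any 1 WT array was left out (adjusted p up to 0.0827). The 6 pregranulosa genes, of the supporting cells of the ovary, all rose, against 2.64% of all genes rising, with a median of 1.66 log2. Their mean level ran from 9.21 to 9.43 log2 on mutant arrays and from 7.39 to 7.51 log2 on WT arrays, with Fst, an activin antagonist, at 3.62 and Bmp2, a growth factor, at 2.11 log2. On mutant arrays 3, 4 and 6 their median was 1.71, 1.52 and 1.71 log2. Of 5 mesonephros genes 1 rose and 1 fell, Gata3 at 1.20 and Lhx1 at -0.96 log2, both transcription factors, and the call of Lhx1 was lost without WT array 1 or 2 or mutant array 3 (adjusted p up to 0.0835). Of 7 liver and erythroid genes 1 fell, Alas2, of haem synthesis in red cells, at -0.51 log2, and its call was lost when any 1 array was left out (adjusted p up to 0.121). With limma's trend and robust options 4 of the 6 Sertoli genes and 2 of the 4 Leydig genes passed. The part of these cell types in the fall of Cxcl12 was not tested.

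Germ cell genes differed in direction, where 4.30% of all genes fell and 2.64% rose. Of 7 listed, Dppa3 and Dnd1, genes of undifferentiated germ cells, fell by 1.55 and 0.83 log2, Sycp3, of the meiotic chromosome axis, rose by 2.34 log2, and the other genes, 4 in number, missed the threshold, with a median of 0.18 log2 over all 7. The mean level of the 7 ran from 9.73 to 9.87 log2 on mutant arrays and from 9.43 to 9.88 log2 on WT arrays. Cxcr4 differed from the WT mean by -0.77, -0.32 and 0.11 log2 on mutant arrays 3, 4 and 6. Over the same arrays Dppa3 differed by -2.43, -1.13 and -1.11 log2, Dnd1 by -1.22, -0.83 and -0.43 log2 and Pou5f1, a pluripotency factor, by -1.03, -0.42 and -0.29 log2. Sycp3 differed by 3.23, 2.4 and 1.38 log2 and Mael, of the germline small RNA pathway, by 1.16, 0.74 and 0.16 log2. Ddx4 and Dazl, RNA-binding proteins of germ cells at large, lay above the WT mean on every mutant array, at 0.15, 0.18 and 0.20 log2 for Ddx4 and at 0.33, 0.27 and 0.32 log2 for Dazl. Dppa3, Dnd1, Pou5f1, Sycp3 and Mael were thus farthest from the WT mean on mutant array 3 and nearest on mutant array 6. Ddx4 and Dazl did not follow that order, so the 7 genes did not share 1. The calls of Dppa3 and Dnd1 were lost when any 1 WT array was left out (adjusted p up to 0.0815 and 0.167), and that of Dnd1 also without mutant array 3 or 4. With array 5 of WT and array 4 of the mutant both left out, Dppa3, Dnd1 and Sycp3 did not pass (adjusted p = 0.0694, 0.129 and 0.116). Neither Dppa3 nor Sycp3 passed with limma's trend and robust options (adjusted p = 0.0573 and 0.0750). No endothelial gene of 7 passed in limma, against 6.94% of all genes. An unadjusted p under 0.05 was found for 4 of the 7, against 21.7% of all genes. Differences were below zero for 6 of 7, with a median of -0.27 log2. The groups did not overlap for 4 in the lower direction (16.6% of all genes) and 1 in the higher (12.1%). The mean level of the endothelial list ran from 8.49 to 8.71 log2 on mutant arrays and from 8.69 to 8.89 log2 on WT arrays. Cdh5, the endothelial cadherin, differed by -0.28 log2 and Kdr, the VEGF receptor and the gene of the list above zero, by 0.38 log2. The median difference of the endothelial list from the WT mean was -0.37, -0.15 and -0.17 log2 on mutant arrays 3, 4 and 6. Over those arrays Pecam1, an endothelial gene also listed below under germ cell migration, differed by -0.31, -0.12 and 0.30 log2. Cdh5 differed by -0.47, -0.21 and -0.17 log2. Both rose from array 3 to 4 to 6, as Cxcr4 did, and the rest of the 7 did not. That order was therefore not particular to germ cell genes. In the other fits at the same threshold at most 1 endothelial gene passed. The part of these cells in the spread of Cxcr4 was not tested.

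**Figure D2:**
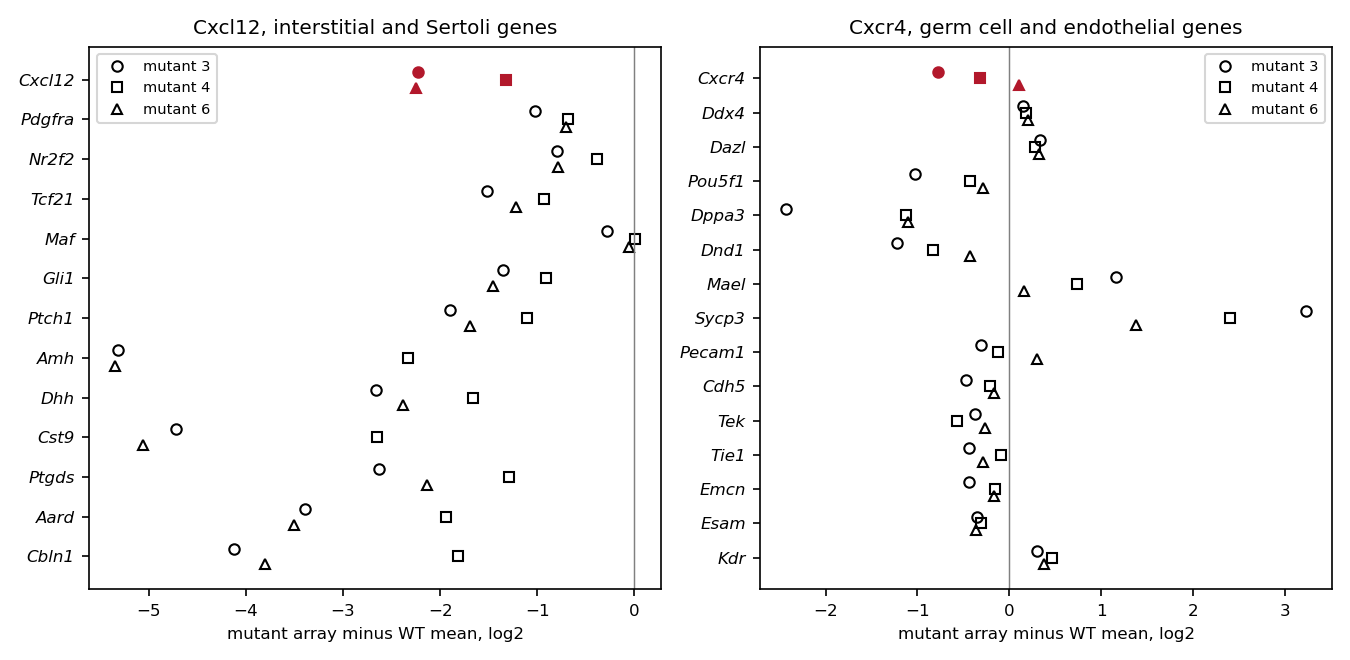
Difference of each mutant array from the WT mean in log2 (horizontal axis) for Cxcl12 with interstitial and Sertoli genes (left) and for Cxcr4 with germ cell and endothelial genes (right), circles for mutant array 3, squares for 4 and triangles for 6. Cxcl12 (red) lies at -2.23, -1.32 and -2.25 log2, and Cxcr4 (red) at -0.77, -0.32 and 0.11 log2.

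The rest of the family is described against all genes measured. With limma and Benjamini-Hochberg adjustment over 28187 probe sets at 0.05, 1 of 51 genes fell and 0 rose, against 6.94% of all 19937 genes passing in either direction, 4.30% lower and 2.64% higher. An unadjusted p under 0.05 was found for 6 of 51, against 21.7% of all genes. The groups did not overlap for 9 of 51, against 28.7% of all genes, with 3 lower (16.6% of all genes) and 6 higher (12.1%). The median difference was 0.06 log2 over the 51 genes, with 35 of them above zero, and 0.004 log2 over all genes, with 10131 of 19937 above zero. At least 1 group mean of 18 genes lay above the background mark, and both means of 33 lay at or below it. Near background, RMA compresses differences, so a small value there does not show the absence of a change. Of the 17 genes above the mark other than Cxcl12, the 95% interval of the difference stayed within 1 log2 of zero for 16 and within 0.5 log2 for 12. The exception was Cxcl13, with an upper bound of 1.04 log2.

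**Figure D3:**
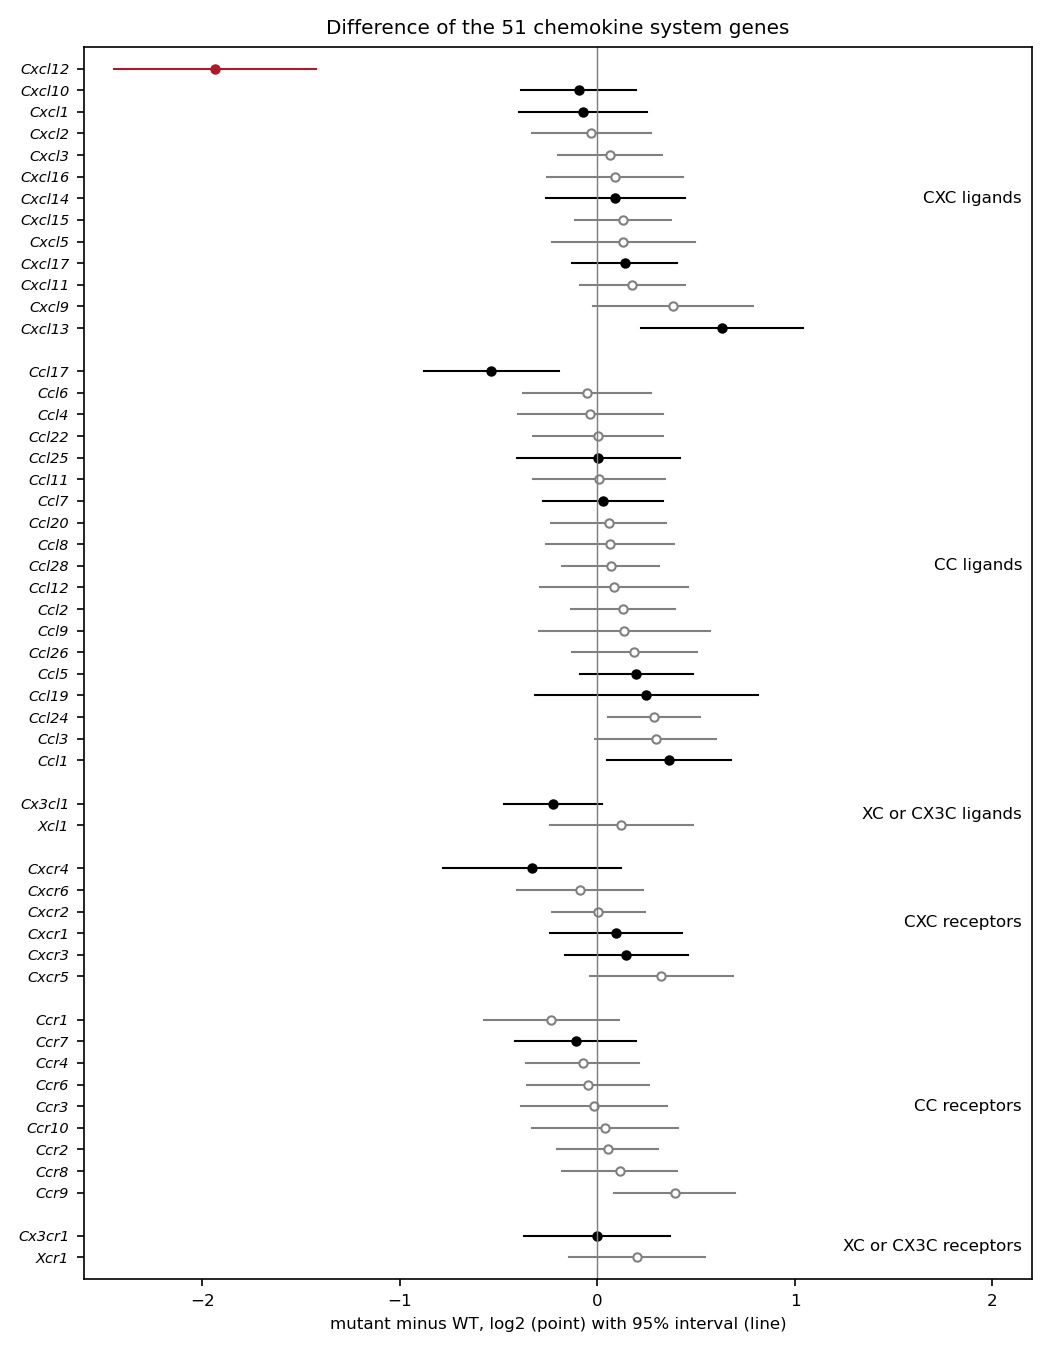
Mutant minus WT difference in log2 (points) with its 95% interval (lines) for the 51 genes, grouped by class, with filled points where a group mean lay above the background mark and red where the test was passed. Cxcl12 at -1.93 log2 is the gene that passed, and the other differences lie between -0.54 and 0.63 log2.

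Among the other CXC ligands, Cxcl13, which draws B cells through CXCR5, measured 7.20, 6.92 and 6.58 log2 on mutant arrays 3, 4 and 6, against 6.17, 6.55 and 6.10 log2 on WT arrays 1, 2 and 5. The groups did not overlap, with mutant array 6 just above WT array 2, and the WT mean of 6.27 log2 lay below the background mark. The difference of 0.63 ± 0.18 log2 did not pass (limma adjusted p = 0.0868). It passed with numbers 5 and 6 as a batch (adjusted p = 0.0257) and without mutant array 6 (adjusted p = 0.0307), over a range of adjusted p up to 0.355 in the other fits. Cxcl10, an interferon-induced ligand of CXCR3, differed by -0.09 log2, and Cxcl1, which draws neutrophils through CXCR2, by -0.08 log2. Cxcl14, a ligand made by many epithelia, differed by 0.09 log2 and Cxcl17, a ligand of mucosal tissues, by 0.14 log2. The adjusted p of these 4 ran from 0.603 to 0.842, and their groups overlapped. The other 2 ligands of CXCR3, Cxcl9 and Cxcl11, had both means below the mark and differences of 0.38 and 0.18 log2 (adjusted p = 0.289 and 0.481).

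Of the CC ligands Ccl17, which acts on CCR4 of T cells, measured 6.66, 6.83 and 6.41 log2 on mutant arrays 3, 4 and 6, against 7.27, 7.31 and 6.94 log2 on WT arrays 1, 2 and 5. The groups did not overlap, and array 6 of the mutant and array 5 of WT were the lowest of their groups. The mutant mean of 6.64 log2 lay below the background mark. The difference of -0.54 ± 0.15 log2 did not pass (limma adjusted p = 0.0795). With numbers 5 and 6 as a batch Ccl17 passed (adjusted p = 0.0147), as it did when only probe sets above the background mark were tested (adjusted p = 0.0461), with adjusted p up to 0.252 elsewhere. The difference was -0.54 log2 within numbers 1 to 4 and -0.53 log2 within numbers 5 and 6. Its receptor gene Ccr4 lay below the mark, with a difference of -0.07 log2.

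Ccl19, a ligand of CCR7 that brings T cells and dendritic cells into lymph nodes, measured 10.23, 9.48 and 9.40 log2 on mutant arrays 3, 4 and 6, against 9.03, 9.54 and 9.80 log2 on WT arrays 1, 2 and 5. These groups overlapped widely, and the difference of 0.25 ± 0.25 log2 did not pass (limma adjusted p = 0.668). GRCm38.p6 holds pseudogenes of Ccl19, and 4 probe sets are annotated to it, so what each reads is uncertain. Their differences were 0.25, 0.34, 0.46 and 0.21 log2, with adjusted p from 0.358 to 0.668. Without mutant array 3 the difference of the probe set used was -0.01 log2.

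Ccl25, a ligand of CCR9 in thymus and gut, differed by 0.0055 log2 at the probe set used, where arrays 5 and 6 stood lowest of both groups, at 6.99 log2 each. Its other probe set had 6.74, 6.92 and 6.66 log2 on mutant arrays, against 7.17, 7.08 and 7.34 log2 on WT arrays, with no overlap and a difference of -0.42 log2 (adjusted p = 0.0937). The probe sets of Ccl25 therefore differ, and the gene has no single direction here. Ccl1, which acts on CCR8, measured 6.80, 6.85 and 6.75 log2 on mutant arrays 3, 4 and 6, against 6.24, 6.36 and 6.71 log2 on WT arrays 1, 2 and 5. The groups nearly touched at mutant array 6 and WT array 5, and the difference of 0.36 log2 did not pass (limma adjusted p = 0.193). The WT mean of 6.44 log2 lay below the background mark. The difference of Ccl5, made by T cells and others, was 0.20 log2, and that of Ccl7, a monocyte attractant of CCR2, 0.03 log2 (adjusted p = 0.459 and 0.943). CX3CL1, which exists as a membrane-bound adhesion form and a shed form, is encoded by Cx3cl1. Its values were 7.72, 7.72 and 7.55 log2 on mutant arrays 3, 4 and 6, against 7.84, 7.93 and 7.89 log2 on WT arrays 1, 2 and 5. No mutant value reached the WT values, but the difference of -0.23 ± 0.11 log2 did not pass (limma adjusted p = 0.311).

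The receptors other than Cxcr4 with a mean above the mark were Ccr7, Cx3cr1, Cxcr1 and Cxcr3, and none passed in limma. Cx3cr1, a receptor of macrophages and microglia, measured 7.41, 7.16 and 7.56 log2 on mutant arrays 3, 4 and 6, against 7.09, 7.42 and 7.62 log2 on WT arrays 1, 2 and 5. The groups overlapped, with a difference of -0.0019 log2 and a 95% interval from -0.37 to 0.37 log2. Differences were -0.11 log2 for Ccr7, which guides lymphocytes to lymph nodes, 0.09 log2 for Cxcr1, a neutrophil receptor, and 0.15 log2 for Cxcr3, of activated T cells (adjusted p from 0.642 to 0.798). Of the 17 receptors 0 passed, against 6.94% of all genes. An unadjusted p under 0.05 was found for 1 of them, against 21.7% of all genes. That gene was Ccr9, at 0.39 log2 (limma adjusted p = 0.147), with both means below the mark. Beside the receptors, 0 of 10 leukocyte genes passed and 1 had an unadjusted p under 0.05, against the same shares of all genes. Csf1r, the receptor that macrophages depend on, differed by 0.0043 log2 and Cd3e, of the T cell receptor complex, by 0.11 log2, and the mean level of the list ran from 6.46 to 6.57 log2 on mutant arrays and from 6.44 to 6.56 log2 on WT arrays, with both means of 5 of the 10 genes below the mark.

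The 33 genes with both means at or below the mark had differences from -0.23 to 0.39 log2, and 0 passed. They were 21 ligands and 12 receptors, with 2 unadjusted p under 0.05, against 21.7% of all genes. For 4 of the 33 the groups did not overlap, with the mutant higher, a share like the 12.1% of all genes. With the mutant lower there were 0 of 33, against 16.6% of all genes. In either direction the 4 of 33 stand against 28.7% of all genes. Ccl11, an eosinophil attractant, and Ccl3, an inflammatory ligand, were named from the ligands by their highest group mean and differed by 0.0086 and 0.29 log2. By the same rule Ccr10, a skin-homing receptor, and Xcr1, a receptor of dendritic cells, were named from the receptors and differed by 0.04 and 0.20 log2.

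Ligand and receptor were also set side by side for 23 known pairings. In 4 of these both genes had a mean above the mark, Cxcl12 with Cxcr4, Ccl19 with Ccr7, Cx3cl1 with Cx3cr1 and Cxcl10 with Cxcr3. In 6 pairings only the ligand did, in 2 only the receptor and in 11 neither. The pairings were a chosen set, so these counts do not describe the whole family. Ccl5, Cxcl14, Cxcl17 and Cxcr1, all with means above the mark, were in none of them. The pairings with a ligand alone above the mark were Ccl25 with Ccr9, Cxcl13 with Cxcr5, Ccl7 with Ccr2, Ccl17 with Ccr4, Ccl1 with Ccr8 and Cxcl1 with Cxcr2. For Cxcl13, Ccl17 and Ccl1 only 1 group mean lay above the mark. Means of Cxcl10 (6.75 log2 in the mutant, 6.85 log2 in WT) and Ccr7 (6.83 and 6.94 log2) were only just above 6.67 log2. On mutant array 4 Cxcl10 read 6.52 log2, below the mark. Cxcr5, the receptor gene for Cxcl13, differed by 0.32 log2 (adjusted p = 0.321), Ccr2 by 0.05, Ccr8 by 0.11 and Cxcr2 by 0.0038 log2.

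Many of these genes are neighbours, which the choice by symbol did not use. With starts less than 1 megabase apart in GRCm38.p6 counted as neighbours, 34 of the 51 lay in 9 groups, whereas Cxcl12 and Cxcr4 each stood alone. Differences above zero were found for 35 of the 51 genes and for 10131 of all 19937 genes. The group of Ccl2, Ccl7, Ccl11, Ccl12, Ccl8 and Ccl1 had 6 of 6 differences above zero, from 0.0086 to 0.36 log2. Of this group Ccl2, Ccl11, Ccl12 and Ccl8 had both means below the background mark. The differences of Ccl7 and Ccl11 changed sign in some other fits. In the group of Ccl5, Ccl9, Ccl6, Ccl3 and Ccl4 differences ran from -0.05 to 0.29 log2, with 3 of 5 above zero. Cxcl5, Cxcl3, Cxcl15, Cxcl1 and Cxcl2, which include the ligands of CXCR2, ran from -0.08 to 0.13 log2. The receptor group of Ccr9, Cxcr6, Xcr1, Ccr1, Ccr3 and Ccr2 had 3 of 6 above zero, from -0.23 to 0.39 log2. Cx3cl1 and Ccl17, both with lower values in the mutant, neighbour Ccl22, which differed by 0.0012 log2. No gene of these 9 groups passed (limma), and 16 of the 17 without a neighbour did not pass either, where 6.94% of all genes passed.

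Genes around the family were taken from lists on binding, signalling, induction and germ cell migration. Of all genes 4.30% fell and 2.64% rose. Of 12 atypical receptors and related ligands 1 rose and 0 fell. That gene was Ackr4, which scavenges CCL19, CCL21 and CCL25 without G protein signalling. It measured 7.52, 7.26 and 7.21 log2 on mutant arrays 3, 4 and 6, against 6.80, 6.62 and 6.61 log2 on WT arrays 1, 2 and 5. Groups did not overlap, and Ackr4 rose by 0.65 ± 0.13 log2 (SE; limma adjusted p = 0.0179), a call lost without WT array 2 or 5 or mutant array 3 (adjusted p up to 0.0700) and without WT array 5 and mutant array 4 together (0.121). The list's median was -0.03 log2.

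Among 33 genes of receptor signalling 3 fell and 3 rose, against 4.30% of all genes falling and 2.64% rising, with a median of -0.08 log2. Sdc4, a heparan sulphate proteoglycan that binds CXCL12, measured 9.89, 10.32 and 9.84 log2 on mutant arrays 3, 4 and 6, against 11.20, 11.20 and 11.10 log2 on WT arrays 1, 2 and 5. Groups did not overlap, and Sdc4 fell by 1.15 log2 (adjusted p = 0.00243). Grk5, a kinase that switches off G protein-coupled receptors, fell by 0.80 log2 (adjusted p = 0.00362), and both genes passed in each other fit. Rgs2, which shortens G protein signals, rose by 0.93 log2 and Plcb3, a phospholipase downstream of these receptors, rose by 0.69 log2 (adjusted p = 0.0149 and 0.0166). Both calls were lost in some fits, that of Rgs2 without WT array 1 or 2 (adjusted p up to 0.0710) and that of Plcb3 without WT array 2 or 5 or in numbers 1 to 4 alone (up to 0.0749), and both without WT array 5 and mutant array 4 together (0.0710 and 0.117). Dock2 (0.68 log2) and Elmo1 (-0.47 log2), partners in chemokine-driven Rac activation, passed with adjusted p of 0.0313 and 0.0410. Leaving out single arrays ended those calls, any array but mutant 6 for Dock2 and any array for Elmo1 (adjusted p up to 0.137 and 0.163).

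Of 20 inflammatory inducers 1 fell and 0 rose, a share near the 4.30% of all genes that fell, with a median of -0.06 log2. Irf1, an interferon-responsive factor, fell by 0.88 log2 (adjusted p = 0.00647), and passed in the other fits except on the mean of its probe sets (-0.43 log2, adjusted p = 0.0804). Of 11 genes of germ cell migration 1 rose and 3 fell, against 2.64% and 4.30% of all genes, with a median of -0.04 log2. Kitl, the KIT ligand on which germ cells depend, measured 11.03, 10.99 and 11.36 log2 on mutant arrays 3, 4 and 6, against 9.51, 9.15 and 9.18 log2 on WT arrays 1, 2 and 5. Thus Kitl rose by 1.85 log2 in the mutant (adjusted p = 0.000323), with no overlap, where Cxcl12, another somatic cue for germ cells, fell. Wnt5a, a ligand of ROR2 in germ cell migration, fell by 1.21 log2, Cdh1, an adhesion molecule of germ cells, fell by 0.98 log2 and Fn1, fibronectin, fell by 0.62 log2 (adjusted p = 0.00160, 0.0180 and 0.0415). Leaving out WT array 1 or 2 ended the call of Cdh1 (adjusted p up to 0.0856), and leaving out any array but mutant 4 that of Fn1 (up to 0.140). Fn1 also did not pass after further quantile normalization (-0.53 log2, limma adjusted p = 0.107) or in numbers 1 to 4 alone (0.0700).

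**Figure D4:**
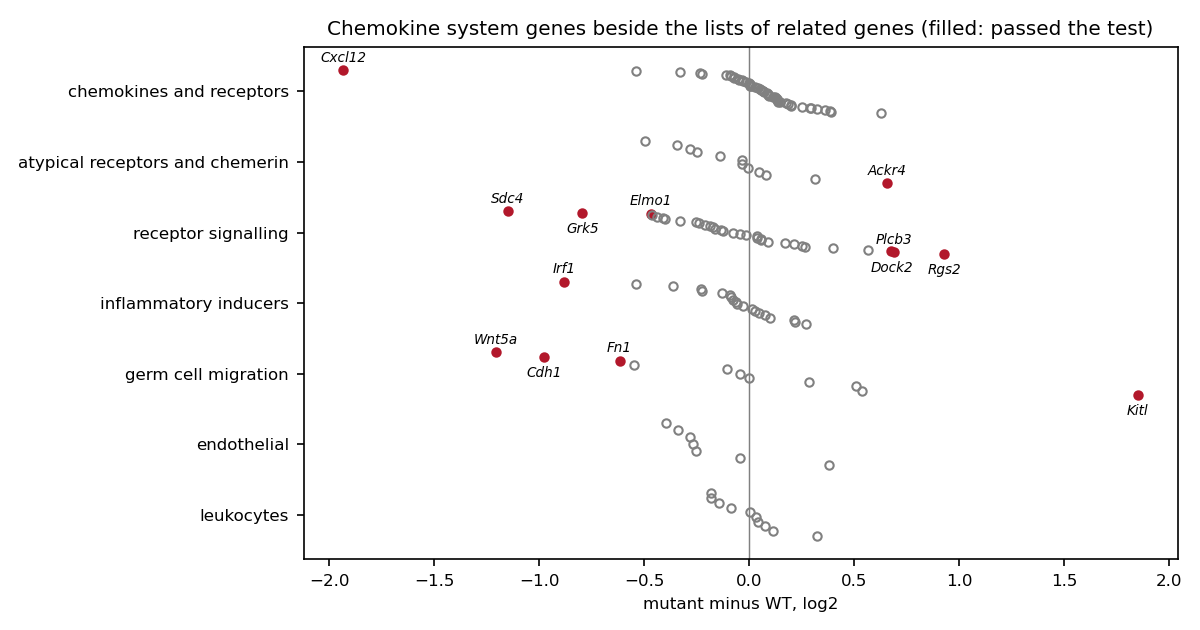
Mutant minus WT difference in log2 (horizontal axis) of the 51 chemokine system genes (top row) and of genes in 6 related lists, a point per gene, filled red with its name where the test was passed. Cxcl12 at -1.93 log2 is the named point of the top row, with Sdc4 at -1.15 and Kitl at 1.85 log2 among the other lists.

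Facts of the arrays that bear on these values are few. Sox9 itself measured 7.52, 7.78 and 7.60 log2 on mutant arrays and 8.82, 8.81 and 9.20 log2 on WT arrays (fall of 1.31 log2, adjusted p = 0.00124), and mutant array 4 was the highest of the mutant arrays for Sox9 as for Cxcl12. Every mutant value of Sox9 lay above the background mark, so its signal fell but was not lost. Defining markers of supporting, interstitial, germ and endothelial cells lay above the background mark in at least 1 group. On WT array 5 the liver genes Afp and Alb read 11.26 and 11.42 log2, against at most 6.60 log2 on mutant arrays and 6.06 log2 on the other WT arrays. Without WT array 5 Cxcl12 differed by -1.94 log2 and Cxcr4 by -0.32 log2.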

How the data were processed

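The authors deposited log2 values per probe set, made with RMA per the submitters' processing notes. That method corrects background, brings the probe signals of all arrays to 1 distribution and then summarises them per probe set. A shift of total RNA per gonad is therefore not visible. Medians of the deposited values still ran from 7.17 log2 on WT array 1 to 7.24 log2 on mutant array 3. The version of RMA is not given in the sources used here. Of 34760 rows, 6573 whose identifiers lie below the lowest annotated one were treated as control probe sets and left out, and 0 of them passed when fitted alone. The 28187 others were fitted in R 4.3.3 by limma 3.58.1 (linear model with empirical Bayes moderation, 2-sided, all 6 arrays, no covariate), with Benjamini-Hochberg adjustment and a threshold of 0.05. The fit was first tested on simulated data. Intervals are 95% moderated intervals. All 51 genes matched GRCm38.p6 by Entrez identifier.

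The genes named were Cxcl12, Cxcr4, each gene of the family past the threshold or with a group mean above the background mark, their partners, and the 2 ligands and 2 receptors of highest group mean among the rest. Of each other list the rule named up to 4 called genes of largest change or, with none called, the 2 of highest mean. Elmo1, Dock2, Nr2f2, Pou5f1, Ddx4, Dazl, Mael, Maf, Pecam1, Cyp17a1, Afp, Alb, Ppbp, Pf4 and Mif were named after their values were seen. The genes, lists and alternatives were chosen with earlier results of these data known. Values were recomputed after quantile normalization or centring on 1 median, with other sets of rows (above the mark, the upper 50%, or every row), with the trend and robust options, with weights per array, with numbers 5 and 6 taken as if they were a batch, with arrays left out, on the mean of a gene's probe sets, and at thresholds of 0.01 and 0.1. Promoter windows are from RefSeq. Figures were drawn with matplotlib 3.10.9.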

Additional observations from a re-analysis of the deposited data

How the results depend on the processing

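No paired analysis was possible because the groups share no array number. Cxcl12 kept its direction and its side of the threshold in all 17 other fits, and Cxcr4 stayed below the threshold in all 17. The count of chemokine system genes passing, 1, was 2 when only probe sets above the background mark were tested (Ccl17 added), 3 with numbers 5 and 6 as a batch and 3 at a threshold of 0.1 (Ccl17 and Cxcl13 added), and 1 to 2 with single arrays left out (Cxcl13 added without mutant 6). All genes passing numbered 1384, against 527 at a threshold of 0.01, 2094 at 0.1, 593 to 1292 with single arrays left out, 772 with every row, 895 in numbers 1 to 4 and 604 without WT 5 and mutant 4. They numbered 2061 with numbers 5 and 6 as a batch, 1766 when only probe sets above the mark were tested and 1700 with array weights. The cause of these shifts was not tested. Uncalled differences near zero changed sign, and the cause was not tested. After quantile normalization they were -0.00028 (Ccl25), -0.011 (Ccl7), -0.024 (Ccr2), -0.070 (Cxcr2), -0.045 (Ccl11) and -0.012 log2 (Ccr10). Centred on 1 median they were -0.016 (Ccl25), -0.018 (Cxcr2) and -0.013 log2 (Ccl11). Without WT 5 and mutant 4 they were -0.22 (Ccl25), 0.038 (Cxcl10), 0.042 (Cxcl1), -0.063 (Cxcl14), 0.23 (Cx3cr1), -0.049 (Ccr2) and -0.19 log2 (Ccl11). In numbers 1 to 4 they were -0.049 (Cxcl14), 0.030 (Cx3cr1) and -0.029 log2 (Ccl11). The mean of its probe sets gave Ccl25 -0.21 log2, and array weights gave Ccr10 -0.027 log2. With single arrays left out, ranges that crossed zero were -0.16 to 0.17 (Ccl25), -0.073 to 0.15 (Ccl7), -0.015 to 0.42 (Ccl19), -0.16 to 0.025 (Cxcl10), -0.21 to 0.033 (Cxcl1), -0.072 to 0.23 (Cxcl14), -0.038 to 0.17 (Cxcr1), -0.15 to 0.12 (Cx3cr1), -0.15 to 0.032 (Ccr4), -0.028 to 0.024 (Cxcr2), -0.097 to 0.13 (Ccl11) and -0.076 to 0.19 log2 (Ccr10). Signal over background limits the 33 genes at or below the mark.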

Other observations

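Platelet and cytokine genes that act on chemokine receptors but carry other names were also measured. Ppbp, a platelet ligand of CXCR2, read 6.23, 6.51 and 6.16 log2 on mutant arrays 3, 4 and 6, against 6.43, 6.53 and 7.45 log2 on WT arrays 1, 2 and 5. Pf4, a platelet chemokine, read 6.41, 6.25 and 6.21 log2 on the mutant arrays, against 6.38, 6.32 and 6.94 log2 on the WT arrays. Both were highest on WT array 5, the array with high Afp and Alb, and neither passed (limma adjusted p = 0.321 and 0.488); the part of liver or blood RNA in these values was not tested. Mif, a cytokine that can bind CXCR4 and CXCR2, read 11.65, 11.62 and 11.62 log2 on mutant arrays 3, 4 and 6, against 11.93, 11.86 and 11.93 log2 on WT arrays 1, 2 and 5. Its groups did not overlap, and the difference of -0.28 log2 did not pass (limma adjusted p = 0.170). These genes were chosen after their values were seen.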
